A study of Mus musculus with 7 samples.

Results

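*Cd79a*, *Cd79b*, *Ms4a1*, *Cd22*, *Blk*, *Pax5*, *Cr2*, *Fcer2a* and *Vpreb3* are genes by which B cells are recognised, and their transcripts were compared between *Rbpj*+/+ and *Rbpj*-/- livers. The 9 genes were taken by name out of 35715 gene names on the array, and all 13 of their probes were read. RNA of whole liver was hybridised to Agilent arrays of 1 dye, with an array for every animal. The *Rbpj*+/+ group held 4 mice (animals +/+_1155, +/+_1156, +/+_1024 and +/+_991 of the labels) that carried *Rbpj* flox/flox alleles and no Cre (*AlfpCre*-). The *Rbpj*-/- group held 3 mice (-/-_N3, -/-_N5 and -/-_2866) with the same floxed alleles and *AlfpCre*+, whose livers were cholestatic. Values of single animals are given in this order. All mice were 4 weeks old, of the C57BL/6J background, untreated and housed free of pathogens. *AlfpCre* acts in the epithelial lineage of the liver, the hepatocytes, the bile duct cells and their precursors, so the B cells of both groups carry floxed and not deleted alleles by design. Whole liver mixes all of its cells, and fewer B cells and less RNA per B cell cannot be told apart.

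B cells recognise antigen through a membrane immunoglobulin, whose signal passes through the heterodimer of CD79A and CD79B to kinases such as BLK, LYN and SYK. PAX5, EBF1 and a few other transcription factors hold the lineage in place, and VPREB3 is a light-chain-like protein of precursor and immature B cells. MS4A1 (CD20), CD22, CR2 (CD21) and FCER2A (CD23) are surface proteins that tune the response. The liver makes B cells before birth, and after birth B cells are a minor part of its leukocytes, found in sinusoids and portal tracts.

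Of the 9 genes 7 could be tested, of which 4 (*Cd79a*, *Vpreb3*, *Ms4a1* and *Cd79b*) fell in *Rbpj*-/- liver and none rose. The fall of *Cd79b* was narrow, since its genotypes overlapped and the call was lost under 12 of 20 alternatives. Of 11 genes shared by all leukocytes 8 rose, as did 12 of 16 macrophage genes. Levels are log2 intensities minus the 75th percentile of the array, and differences are *Rbpj*-/- minus *Rbpj*+/+ on that scale. A gene passed the test at an adjusted p below 0.1 in limma, with Benjamini-Hochberg adjustment over all 24566 tested probes. Among 18785 tested genes, 19.5% passed as lower and 14.6% as higher in *Rbpj*-/- liver, and 21.1% had every *Rbpj*-/- animal below every *Rbpj*+/+ animal. Against these shares, 4 of 7 B cell genes passed as lower, 0 of 7 as higher, and 3 of 7 (*Cd79a*, *Vpreb3* and *Ms4a1*) had no overlap. *Cd79a* and *Ms4a1* entered the test only through the *Rbpj*+/+ arrays, where they are higher. With only probes above background on every array, 2 of 5 genes passed as lower (*Cd79b* and *Vpreb3*), beside 3778 of all 16573 tested genes. Without scaling between arrays, 2 of 7 did (*Cd79a* and *Ms4a1*), beside 446 of all 18785. The genes were chosen with earlier results of these data known, so the counts are a description. The median difference of the 7 B cell genes was -0.94, beside -0.13 over all tested genes. No B cell gene had an unadjusted p below 0.05 in the higher direction, and the count of 0 was also 0 with limma-trend and with the values of the series matrix.

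Some facts of the arrays bear on every value. Between 41.2% and 65.0% of the probes were well above background; precision is set by the few arrays. The 75th percentile of intensity was 57.5 to 102.6 in *Rbpj*+/+ and 118.1 to 142.5 in *Rbpj*-/- liver, so the scaling lowers *Rbpj*-/- values relative to *Rbpj*+/+ values. Without it, the median difference of all tested genes moved from -0.13 to 0.60, and the split of 3672 lower and 2743 higher genes became 446 and 7725. With the values of the series matrix the split was 2585 and 3147. Arrays +/+_1156 and -/-_N3 had a median intensity of 18.7 and 29.6, against 4.99 to 7.75 on the other 5 arrays, which makes dim probes look brighter there. All arrays lay on 1 slide, *Rbpj*+/+ in row 1 and *Rbpj*-/- in row 2, so row and genotype cannot be told apart. The tissue label held: *Alb*, the serum albumin gene, was among the brightest probes, at a mean of 9.95 ± 0.16 (SD, n = 4) without and 9.17 ± 0.06 (SD, n = 3) with the deletion. *Rbpj* itself, read by its brighter probe, was at 0.60 ± 0.34 (SD, n = 4) and -0.54 ± 0.22 (SD, n = 3), a difference of -1.13 (adjusted p = 0.0115). Whether that probe lies within the deleted exons was not determined, and without scaling the difference was -0.41 (adjusted p = 0.393).

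The probes behind the 4 genes that fell are shown first, because *Cd79a* has a pair of probes that read differently. Each line gives the first 30 bases of a probe, 5′ to 3′ as in the array's files, all in lower case because no base is singled out.
*Cd79a*, tested probe: cctcctcccagatctgtcatggccacttaa
*Cd79a*, probe not tested: tagaaaacaacatattaaaacgctcctgtg
*Cd79b*: agagacttgttggaatctgcaaatggactc
*Vpreb3*: gtcaaccactgtcctgagaactgtgagatc
*Ms4a1*: gctgtgctttgagattctttccaaatggca
The array's design, in mm9 coordinates, places the *Cd79b* probe at chr11:106172780-106172839, the *Vpreb3* probe at chr10:75412326-75412385 and the *Ms4a1* probe at chr19:11325367-11325426. It places the tested *Cd79a* probe at chr12:53180558-53180617 and gives no position for the other, whereas RefSeq has the gene on chromosome 7. The names of the tested *Cd79a* probe and its cDNA clone are those of the array, and its position was not resolved here.

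*Cd79a*, the alpha chain of the antigen receptor's signalling dimer, fell on its tested probe, whose position was not resolved. Its level in *Rbpj*+/+ liver was -1.53, -0.96, -1.45 and -0.82. In *Rbpj*-/- liver it was -3.32, -3.42 and -2.82, and on array -/-_N3 the probe was not well above background. The genotypes did not overlap, also in unscaled intensity, which was 21.1 to 44.0 in *Rbpj*+/+ and 12.2 to 16.8 in *Rbpj*-/- liver. The difference was -1.99 ± 0.25 (SE), a 3.98-fold lower level (limma, adjusted p = 0.00177). The exact two-sided permutation test over 35 splits of the animals gave p = 0.0286, the smallest that 4 against 3 animals allow. All 19 alternatives that tested the gene kept the call, with differences from -2.18 to -0.82. The second *Cd79a* probe did not carry the same information. It was well above background on array +/+_1156 alone, its intensities ran from 2.0 to 17.3, and its levels overlapped between the genotypes (difference -0.31). The fall of *Cd79a* therefore rests on the tested probe.

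*Cd79b*, the beta chain, was the brightest of the 7 genes on its own probe and passed the test narrowly. Its level was 0.09, 0.79, 0.42 and 1.52 in *Rbpj*+/+ liver. In *Rbpj*-/- liver it was -0.41, -0.60 and 0.32. Animal -/-_2866 lay above animal +/+_1155, so the genotypes overlapped. The difference was -0.94 ± 0.36 (SE, adjusted p = 0.0927), with an exact permutation p of 0.114. The call was lost under 12 of 20 alternatives, among them leaving out animal +/+_1024, +/+_1156, +/+_991, -/-_N3 or -/-_N5, which gave adjusted p = 0.131, 0.139, 0.177, 0.219 and 0.270. Unscaled, the difference was -0.21 (adjusted p = 0.684).

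*Vpreb3*, which associates with immunoglobulin chains in immature B cells, fell without overlap. *Rbpj*+/+ levels were -2.15, -1.54, -1.53 and -1.39. *Rbpj*-/- levels were -3.00, -3.23 and -2.58. The probe was well above background on all 7 arrays, and all *Rbpj*-/- values lay below all *Rbpj*+/+ values. The difference was -1.29 ± 0.25 (SE), a 2.44-fold lower level (adjusted p = 0.0091, exact permutation p = 0.0286). With quantile normalization the difference was -1.39 at an adjusted p of 0.112, and without scaling it was -0.56 at 0.144. In unscaled intensity the margin was narrow, with 19.9 as the lowest *Rbpj*+/+ value and 19.7 as the highest *Rbpj*-/- value.

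*Ms4a1*, the gene of the surface protein CD20 of mature B cells, had the largest difference of the 7 and the widest spread. In *Rbpj*+/+ liver the levels were -1.67, -1.49, -1.57 and -0.54. In *Rbpj*-/- liver they were -5.44, -6.01 and -2.51. The probe was well above background on all 4 *Rbpj*+/+ arrays but only on array -/-_2866 among the *Rbpj*-/- arrays, so the values of -/-_N3 and -/-_N5 are near the floor. The difference was -3.34 ± 0.74 (SE, adjusted p = 0.0143, exact permutation p = 0.0286). Its size is uncertain, since it was -4.41 without animal -/-_2866, -2.66 without -/-_N5 and -0.96 after another background correction (normexp with an offset of 50, adjusted p = 0.00482). Without a filter on dim probes the adjusted p was 0.116. In unscaled intensity the genotypes overlapped, since animal -/-_2866 had 20.8 and animal +/+_1024 had 19.4.

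**Figure D1:**
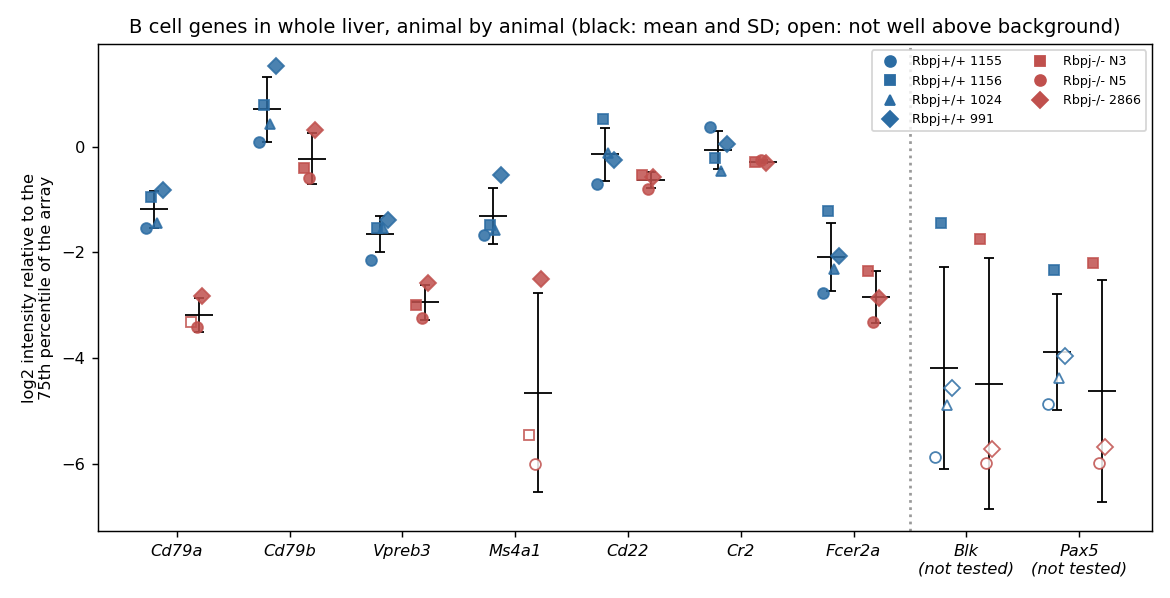
Level of each B cell gene in each animal, as log2 intensity minus the 75th percentile of the array; *Rbpj*+/+ in blue (n = 4) and *Rbpj*-/- in red (n = 3), black bars give mean and SD, and open symbols mark arrays where the probe was not well above background. *Cd79a*, *Vpreb3* and *Ms4a1* do not overlap between genotypes, and *Blk* and *Pax5* stand out only on arrays +/+_1156 and -/-_N3.

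The co-receptors and low-affinity receptors did not pass the test. *Cd22*, an inhibitory lectin that binds sialic acid, had levels of -0.70, 0.51, -0.12 and -0.26 in *Rbpj*+/+, and of -0.53, -0.80 and -0.57 in *Rbpj*-/- liver. These overlapped, with a difference of -0.49 ± 0.28 (SE, adjusted p = 0.231). A second probe of *Cd22*, made for a predicted transcript, was well above background on arrays +/+_1156 and -/-_N3 only. *Cr2*, the complement receptor that is abundant on marginal zone and follicular B cells, had 0.37, -0.21, -0.46 and 0.05 in *Rbpj*+/+ and -0.30, -0.25 and -0.30 in *Rbpj*-/- liver. Its difference was the smallest of the 7, -0.22 ± 0.23 (SE, adjusted p = 0.504). The second *Cr2* probe, well above background on 3 *Rbpj*+/+ and 2 *Rbpj*-/- arrays, was not tested and had a difference of -0.68. *Fcer2a*, the low-affinity receptor for IgE, had -2.76, -1.22, -2.31 and -2.06 in *Rbpj*+/+ and -2.35, -3.32 and -2.86 in *Rbpj*-/- liver. Its difference of -0.75 ± 0.37 (SE, adjusted p = 0.171) passed under 5 of 20 alternatives, with normexp background correction (-0.47, adjusted p = 0.0474), quantile normalization (-0.82, 0.0752), the series matrix (-0.82, 0.0761), array weights (-0.73, 0.0917) and without animal +/+_1155 (-0.98, 0.0913). Without scaling, *Cd22* and *Cr2* changed sign, to 0.24 and 0.51, and *Fcer2a* was at -0.03; none passed there.

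*Blk*, a SRC-family kinase of B cells, and *Pax5*, the factor that commits cells to the B lineage, were not tested because each stood out from background on too few arrays. *Blk* had intensities of 1.8, 31.6, 1.9 and 3.2 in *Rbpj*+/+ and of 42.3, 2.1 and 2.2 in *Rbpj*-/- liver. The brighter *Pax5* probe had 3.5, 16.9, 2.8 and 4.8 in *Rbpj*+/+ and 31.2, 2.1 and 2.3 in *Rbpj*-/- liver. In both genes the high values were those of arrays +/+_1156 and -/-_N3, 1 of each genotype and the arrays with the brighter dim probes. Tested without the filter, the differences were -0.30 for *Blk* (adjusted p = 0.96) and -0.73 for this *Pax5* probe (adjusted p = 0.831). These arrays do not measure either gene well enough to say whether it differed.

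Within each genotype the 4 genes that fell shared an order of animals. Animal +/+_991 was the highest *Rbpj*+/+ animal for *Cd79a*, *Cd79b*, *Vpreb3* and *Ms4a1*, and +/+_1155 the lowest. Among the *Rbpj*-/- animals, -/-_2866 was the highest and -/-_N5 the lowest for all 4. The genes of an animal share its array and its scaling, so these orders are no independent measurements.

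**Figure D2:**
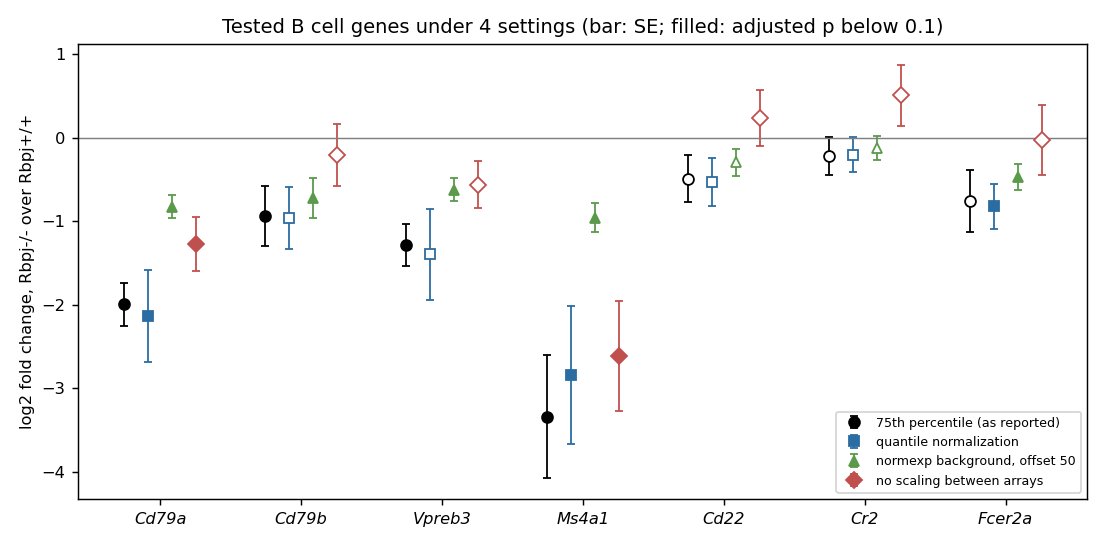
Difference between genotypes for the 7 tested B cell genes (log2 fold change, *Rbpj*-/- over *Rbpj*+/+, with SE) under 4 ways of processing; filled symbols have an adjusted p below 0.1. *Cd79a* and *Ms4a1* are filled under all 4, normexp shrinks both, and without scaling *Cd22* and *Cr2* lie above 0.

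Promoters were read for the genes that RefSeq's table covers, 6 of the 9 genes with 8 promoters (GRCm38.p6). The 250 bases before each annotated start were searched on both strands for ATGCAAAT, the octamer bound by OCT factors, for CCCNNGGG, the core bound by EBF1, for TGGGAA, the core bound by RBPJ, and for GAGGAAGT, a site of the ETS factor PU.1. Those of *Vpreb3* and *Cd79a* are printed because they belong to genes that fell; capitals mark matches.
*Vpreb3*, chr10:75948050-75948299, plus strand: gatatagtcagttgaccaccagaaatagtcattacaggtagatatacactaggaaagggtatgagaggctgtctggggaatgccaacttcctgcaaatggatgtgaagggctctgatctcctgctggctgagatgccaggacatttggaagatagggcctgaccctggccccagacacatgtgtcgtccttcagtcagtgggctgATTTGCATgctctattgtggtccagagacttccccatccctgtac
*Cd79a*, chr7:24897247-24897496, plus strand: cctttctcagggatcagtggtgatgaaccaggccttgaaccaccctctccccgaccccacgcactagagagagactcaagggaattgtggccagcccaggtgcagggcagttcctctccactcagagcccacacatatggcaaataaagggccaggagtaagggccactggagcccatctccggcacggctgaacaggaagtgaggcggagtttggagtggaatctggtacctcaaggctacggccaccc
The *Vpreb3* window holds an octamer on the reverse strand that begins 45 bases before the start, a match found in 1.60% of all 32851 promoters. The *Cd79a* window holds no exact match to these letters, and sites that depart from them were not searched for, so a binding site may still be present. Elsewhere, *Cd22* holds the EBF1 core, found in 11.8% of promoters, and the RBPJ core, found in 21.6%. The RBPJ core also occurs before *Cr2* and in 2 of the 3 windows of *Fcer2a*, and the PU.1 letters, found in 2.44% of promoters, in none of the 8 windows.

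Further genes of B cells were read from lists by function. The counts of every list stand beside the shares over all tested genes, 19.5% lower and 14.6% higher. The list of surface and survival receptors had 11 of 18 genes tested, of which 3 fell, 5 rose and 3 did not pass, with a median of 0.30 (-0.14 with normexp background correction). *Fcmr*, the receptor for IgM, fell by 2.62 (adjusted p = 0.0241), and *Fcrl5* fell by 0.73 (adjusted p = 0.0582). Both were named after their values were seen. Without scaling *Fcrl5* was at -0.005 (adjusted p = 0.991), and with normexp its call was lost (0.104). Just 1 of the 3 *Rbpj*-/- arrays had *Fcmr* well above background, which leaves its fold uncertain. It was -0.83 with normexp (adjusted p = 0.015), and the call was lost with quantile normalization (0.101) and the series matrix (0.103). The cells that carried the genes that fell or rose were not told apart. *Fcgr2b*, an inhibitory IgG receptor of B cells, macrophages and liver sinusoidal endothelium, rose by 1.42 (adjusted p = 0.00304). *Ly6d*, a surface antigen of early B cells and of squamous epithelia, rose by 3.07 (adjusted p = 0.0294), *Cd24a*, found on B cells, granulocytes and biliary cells, by 0.92 (0.0657) and *Cd37*, a tetraspanin of leukocytes, by 0.61 (0.0945). The genotypes of *Ly6d* and *Cd24a* overlapped, and *Cd37* lost its call with quantile normalization (0.102). *Cd40*, the receptor for T cell help that macrophages also carry, rose by 1.22 (adjusted p = 0.0121) but was at -0.14 with normexp background correction. *Fcgr2b*, *Cd24a* and *Cd40* were also named after their values were seen. *Cd72*, an inhibitory receptor, had a difference of 0.30 (adjusted p = 0.426), and *Tnfrsf13c*, the BAFF receptor, and *Cxcr5*, the receptor for CXCL13, were not tested.

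The signalling genes downstream of the receptor went mostly the other way. All 18 were tested; 9 rose, 1 fell and 8 did not pass, with a median of 0.81. *Blnk*, the adaptor that links SYK to its targets in B cells, was the gene that fell. Its levels were 1.91, 2.20, 0.44 and 1.88 in *Rbpj*+/+ and -0.24, -0.05 and -0.37 in *Rbpj*-/- liver, without overlap (difference -1.83 ± 0.39 SE, adjusted p = 0.0127; unscaled -1.10, adjusted p = 0.112). *Syk*, the kinase used by B cell and myeloid receptors alike, rose by 1.03 (adjusted p = 0.0224), and *Dapp1*, an adaptor that binds phosphoinositides, rose by 1.75 (adjusted p = 0.0286). *Lyn* (-0.18, adjusted p = 0.722) and *Btk* (0.82, adjusted p = 0.126) did not pass; the *Btk* fit lacked animal +/+_1156, whose spot was marked as an outlier. Most genes of this list also act in myeloid cells, and which cells carried the rises or the fall was not tested.

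Of 12 B cell transcription factors, 9 were tested; 4 fell, 2 rose and 3 did not pass, with a median of -0.88. *Pou2af1*, the co-activator of OCT factors in B cells, fell by 1.85 (adjusted p = 0.0137) and was well above background on 1 of 3 *Rbpj*-/- arrays. *Bach2*, a repressor that holds B cells back from plasma cell fate, fell by 1.69 (adjusted p = 0.0117), and *Spib*, an ETS factor of B cells and plasmacytoid dendritic cells, by 1.58 (0.0331). Of the 3 *Rbpj*-/- arrays 1 had *Spib* well above background, and its genotypes overlapped. Its difference was -0.67 with normexp (adjusted p = 0.0201), and the call was lost with quantile normalization (0.115), the series matrix (0.116) and without scaling (0.127). *Ikzf3*, a zinc-finger factor of mature lymphocytes, fell by 0.88 (adjusted p = 0.0779), with overlapping genotypes, and was at -0.15 without scaling (0.786). The factors that rose were *Irf8*, shared with macrophages and dendritic cells, by 1.17 (adjusted p = 0.00326), and *Ikzf1*, shared by lymphoid cells, by 1.27 (0.0626). *Ikzf1* was well above background on no *Rbpj*+/+ array, a level at least 2.15-fold higher, and was at -0.13 with normexp. Here a bound sets the *Rbpj*-/- mean against the lowest signal well above background on each *Rbpj*+/+ array, or the probe's own if higher. *Ikzf3*, *Irf8* and *Ikzf1* were named after their values were seen, and *Ebf1* was not tested. With quantile normalization 1 factor passed as lower and 1 as higher.

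The early and late stages of the lineage were thinly measured. Of 9 precursor genes 2 were tested. *Dntt*, the polymerase that adds bases at antigen receptor joints, fell by 1.76 (adjusted p = 0.0618), but its genotypes overlapped. Without scaling its difference was -1.03 (adjusted p = 0.248). *Vpreb1*, of the surrogate light chain, had a difference of -0.65 (adjusted p = 0.285), and *Igll1* and *Rag1* were not tested. Of 7 plasma cell genes 5 were tested, 1 lower and 2 higher. *Derl3*, of the degradation machinery of the endoplasmic reticulum, fell by 2.46 (adjusted p = 0.0516). Its genotypes overlapped, and without scaling its difference was -1.74 (adjusted p = 0.123). *Prdm1*, a factor of plasma cells and other leukocytes, rose by 1.19 (adjusted p = 0.0764; -0.08 with normexp), and *Sdc1*, a proteoglycan of plasma cells and hepatocytes, by 1.12 (0.0172; named after its value was seen). *Mzb1*, a chaperone of immunoglobulin, had a difference of -0.34 (adjusted p = 0.408), and *Jchain* was not tested.

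Immunoglobulin chains gave no single direction. The search by gene name did not cover the constant regions of most heavy chain classes or of lambda chains. Whether the array names them was not checked. Of the 10 probes that the search found, 3 were tested. *Igkv4-72* fell by 0.80 (adjusted p = 0.0343), *Iglv1* had a difference of -0.62 (adjusted p = 0.368), and *Igh-VJ558* was at least 2.28-fold higher, being well above background on no *Rbpj*+/+ array and on all *Rbpj*-/- arrays (adjusted p = 0.0376). With probes recognised by their description added, a rule made after the data were seen, 12 of 129 were tested, 3 lower and 1 higher, with a median of -0.25. Variable segments resemble each other, so a probe may read more than its own segment.

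Signals that draw or feed B cells were read too. Of 10 genes 4 were tested. *Cxcl12*, a chemokine that retains B cells and their precursors, fell by 0.81 (adjusted p = 0.035; unscaled -0.08), and *Ltb*, a lymphotoxin chain made by lymphocytes, rose by 1.12 (0.0822). The genotypes overlapped for *Ltb*, and its call was lost with quantile normalization (0.129) and the series matrix (0.129). *Cxcl13*, which attracts B cells into follicles, had a difference of -1.25 (adjusted p = 0.102), and *Tnfsf13b*, the survival factor BAFF, was not tested. Marginal zone B cells depend on Notch signalling through NOTCH2, and all 8 genes of that list were tested. *Cd9*, a tetraspanin of marginal zone B cells and many epithelia, rose by 1.55 (adjusted p = 0.00416), *Dll1*, the ligand, rose by 0.74 (0.0322; named after its value was seen), and *S1pr1*, which guides lymphocyte exit and is strong in endothelium, fell by 1.04 (0.0249). Without scaling *S1pr1* was at -0.31 (adjusted p = 0.397), and with normexp *Dll1* was at 0.24 (0.185). *Dtx1*, a Notch target of marginal zone B cells, had a difference of -0.53 (adjusted p = 0.46), and 5 of the 8 did not pass.

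**Figure D3:**
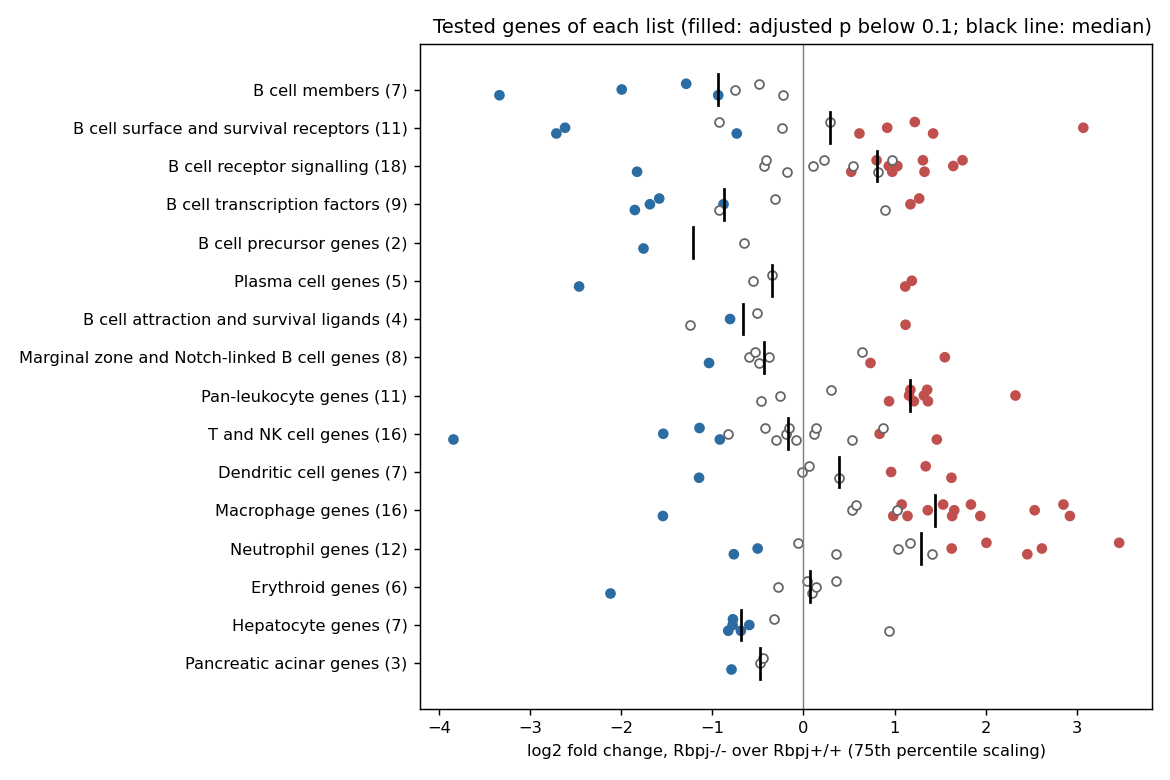
Difference between genotypes (log2 fold change, *Rbpj*-/- over *Rbpj*+/+) for every tested gene of the B cell genes and 15 further lists, with the number of tested genes in brackets; filled symbols have an adjusted p below 0.1 and black lines give the median. The B cell genes have a median of -0.94, the pan-leukocyte genes 1.17 and the macrophage genes 1.45.

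Genes shared by all leukocytes were read for comparison. Of 11 such genes 8 rose and 0 fell, with a median of 1.17, and the count of 8 was also reached with quantile normalization, with 9 under normexp and without scaling. *Ptprc* (CD45) had -2.18, -1.48, -2.49 and -2.03 in *Rbpj*+/+ and -0.31, -1.05 and -0.80 in *Rbpj*-/- liver, a difference of 1.32 (adjusted p = 0.0127). *Cd53* and *Cd48*, leukocyte membrane proteins, rose by 2.33 (adjusted p = 0.000689) and 1.37 (0.00216). The mean over the 7 B cell genes minus the mean over the 11 pan-leukocyte genes was -1.69, -1.09, -1.46 and -1.31 in *Rbpj*+/+ and -3.77, -3.97 and -3.13 in *Rbpj*-/- liver. Scaling cancels in this difference, in which the genotypes did not overlap, and no test was made of it. The gap rests in part on genes that entered only through the group where they are higher. These were *Cd79a* and *Ms4a1* through the *Rbpj*+/+ arrays and *Cd53* through the *Rbpj*-/- arrays. *Ms4a1* was also near the floor on arrays -/-_N3 and -/-_N5.

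Other immune cells were read too, and no difference between lists was tested. Of 16 macrophage genes 12 rose and 1 fell, among them *Marco* by 2.92 (adjusted p = 0.00221), *Lyz2* by 2.85 (0.00128) and *Adgre1*, the F4/80 antigen, by 1.66 (0.00226), while *Clec4f*, a Kupffer cell lectin, had a difference of 0.57 (0.13). Of 16 tested T and NK cell genes of 25 listed, 4 fell, 2 rose and 10 did not pass, with a median of -0.17 that was 0.56 without scaling. Over all tested genes 19.5% passed as lower and 14.6% as higher, so these counts are near the general shares. *Zap70*, the kinase of the T cell receptor, fell by 3.84 (adjusted p = 0.000951). The other genes that fell were *Cd4*, also found on myeloid cells, by 1.54 (0.0109), *Cd2* by 1.14 (0.0799) and *Cd3e*, a chain of the T cell receptor complex, by 0.92 (0.0123). Without scaling *Cd3e* was at -0.19 (adjusted p = 0.623) and *Cd2*, whose genotypes overlapped, at -0.41 (0.425). *Zap70* (-3.11, 0.000616) and *Cd4* (-0.81, 0.0745) still passed there. *Gzmb* rose by 1.46 (adjusted p = 0.0245), but was at 0.13 with normexp (0.606) and lost the call with quantile normalization (0.101) and the series matrix (0.102). *Cd28* was at least 1.79-fold higher (0.0965), being above background on no *Rbpj*+/+ array, although it was at -0.16 with normexp. *Cd2*, *Gzmb* and *Cd28* were named after their values were seen. *Lck* and *Nkg7* did not pass, with -0.16 (adjusted p = 0.716) and -0.42 (0.174). Of 7 tested hepatocyte genes 5 fell, among them *Alb* by 0.78 (adjusted p = 0.0167) and *Apoa1* by 0.83 (0.0521), whereas none passed as lower without scaling and 1 with quantile normalization. The part of these shifts in the values of the B cell genes was not tested.

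**Figure D4:**
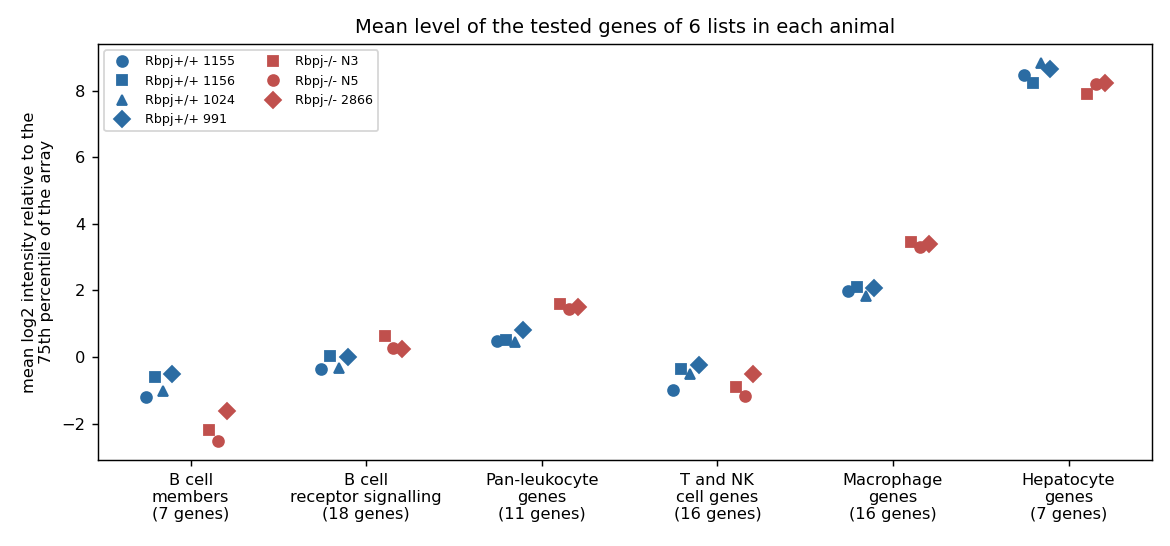
Mean level of the tested genes of 6 lists in each animal (log2 intensity minus the 75th percentile of the array; *Rbpj*+/+ in blue, *Rbpj*-/- in red). Animals can be compared within a list and not between lists: the B cell genes run from -1.19 to -0.50 in *Rbpj*+/+ and from -2.52 to -1.62 in *Rbpj*-/- liver, the pan-leukocyte genes from 0.46 to 0.81 and from 1.45 to 1.58.

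The genes whose profile over the 7 arrays came closest to the B cell genes were sought among 18751 other genes, by the root mean square difference from the mean centred profile of the 7. The nearest 8 had differences of 0.13 to 0.21 log2 units. They included *Irs4*, *Prr5* and *Gm9924*, and the other 5 were known only by a probe or by a noncoding region. None of the 8 came from the B cell lists. The nearest genes of those lists were *Ccr7*, *Spib* and *Pou2af1*, at ranks 274, 303 and 766, with 0.33, 0.33 and 0.38 log2 units.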

How the data were processed

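Whole liver of 4 *Rbpj*+/+ and 3 *Rbpj*-/- mice was measured, 1 array per animal. The scanner intensities were deposited as background-subtracted, detrended signals that the authors made with Agilent Feature Extraction 10.7.3.1, not normalized between arrays. The deposited log2 values of the series matrix correlated at r of at least 0.9997 with quantile-normalized, probe-centred log2 intensities, and at 0.776 to 0.876 with percentile-shifted ones; their medians were 0 on 6 arrays and -0.0039 on array +/+_1156. They served as an alternative. Quality scores and other deposited columns were used as filters only.

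Control spots and spots marked as non-uniform or population outliers were left out, repeated spots of the same probe were averaged (log2), and arrays were shifted to a common 75th percentile. Testing took probes that stood well above background throughout at least 1 genotype, with limma 3.58.1 (R 4.3.3) at an adjusted p below 0.1, and single genes by an exact permutation test over 35 splits. The brightest tested probe stood for its gene. Series matrix values are probe-centred, so with them a gene of several probes could be read by another probe. Replicates are separate animals, and no litter or batch is labelled. The procedure was tested on simulated data.

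Besides the B cell genes, lists of surface and survival receptors, receptor signalling, transcription factors, precursor, plasma cell, attraction and survival ligand, marginal zone and Notch-linked, pan-leukocyte, T and NK, dendritic, macrophage, neutrophil, erythroid, hepatocyte and pancreatic acinar genes were read. Members and lists were chosen with earlier results of these data known. Named genes are the members, *Rbpj*, the lists' defining genes, the 2 largest differences of every list, and the nearest profiles; genes outside this rule are marked in the text. The values of 1 gene of the surface receptor list are not reported here. Altogether 20 alternatives were run, 1 of them (arrays +/+_1156 and -/-_N3 left out together) added after the data were seen. Promoters are those of RefSeq, and probe positions those of the array's design (mm9). Python 3.11.15, pandas 2.3.3, numpy 2.4.6 and matplotlib 3.10.9 made tables and figures.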

Additional observations from a re-analysis of the deposited data

Results flagged for a closer look

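In the *Rbpj*+/+ group, animal +/+_991 stood apart for *Ms4a1*. Its level was -0.54, while the other *Rbpj*+/+ animals lay between -1.67 and -1.49. The gap took 0.843 of the group's range, above the limit of Dixon's test for 4 samples. Such a test marks about 1 in 20 groups by chance, and 7 genes were examined. The cause was not tested. Without animal +/+_991 the difference of *Ms4a1* between the genotypes was -3.08 (adjusted p = 0.0361).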

How the results depend on the processing

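Of the 4 B cell genes called lower, 2 passed without scaling between arrays (*Cd79a*, *Ms4a1*) and 2 without a filter on dim probes (*Cd79a*, *Vpreb3*). Where only probes above background on all 7 arrays were tested, 2 passed, and *Cd79a* and *Ms4a1* were left untested. Of all tested genes, 446 of 18785, 674 of 35715 and 3778 of 16573 passed as lower in these settings, in this order. Leaving out an animal gave 3 to 5 calls and a median difference of -1.21 to -0.75; no alternative called a B cell gene higher. Without scaling the median moved to -0.21, and *Cd22* (0.24) and *Cr2* (0.51) changed sign. Other alternatives kept 3 to 5 calls; with quantile normalization and the series matrix 2 of the 3 called genes were among the 4. Without arrays +/+_1156 and -/-_N3, chosen after the data were seen, 3 remained. Over all genes, 8245 tested probes passed, 2038 without the filter, and 4676 to 9020 when an animal was left out (4676 without -/-_N5, 5464 without +/+_1024). No paired analysis was possible because the labels give the genotypes no shared replicate numbers. The number of arrays and the dimness of the B cell probes limit what can be called: normexp shrank the difference of *Ms4a1* from -3.34 to -0.96.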

Other observations

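Genes of further blood cell types were read as well. Of 12 tested neutrophil genes 5 rose and 2 fell, with a median difference of 1.29 (0.06 with normexp background correction). *Retnlg*, a resistin-like protein of neutrophils, rose by 3.47 (adjusted p = 0.0017) and *S100a8*, a calcium-binding granulocyte protein, by 2.62 (0.0186). Of 7 tested dendritic cell genes 3 rose and 1 fell. *Itgax* (CD11c) rose by 1.62 (adjusted p = 0.00583) and *Flt3*, a growth factor receptor of their precursors, by 0.96 (0.0943; named after its value was seen). Of the 4 *Rbpj*+/+ arrays 2 had *Flt3* well above background, and its difference was 0.00 with normexp (0.994). *Siglech*, of plasmacytoid dendritic cells, fell by 1.15 (0.00602) and was at -0.98 with quantile normalization (0.0259), but at -0.42 without scaling (0.313). The series matrix gave -0.29 (0.726), where another probe can stand for the gene. *Cd209a* was at least 1.95-fold higher (0.0923), being above background on no *Rbpj*+/+ array, but was at -0.17 with normexp.

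Of 6 tested erythroid genes, *Alas2*, the first enzyme of heme synthesis in red cell precursors, fell by 2.13 (adjusted p = 0.012). *Hba-a1* (-0.28, adjusted p = 0.727) and *Hbb-b1* (0.36, 0.689), the globin genes, did not pass. Of 3 tested pancreatic acinar genes *Ctrb1*, a chymotrypsinogen, fell by 0.79 (adjusted p = 0.0521) and *Cel* had a difference of -0.47 (0.515); *Cpa1* was not tested.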
